A study of Mus musculus with 4 samples.

Results

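To ask how the neighbourhood of Zfp42 and Fat1 is divided into contact domains, Micro-C contacts were taken from all listed pairs of 8 kb bins on chromosome 8 with both bins between 42.8 and 45.3 Mb (GRCm38). The window spanned 42800001 to 45296000, 312 bins over 2496 kb, of which 311 held contacts in every library. It contributed 24589 of the 23095428 listed pairs in embryonic stem cells (ESCs) and 22779 of the 21005697 listed pairs in motor neurons (MNs). Micro-C cross-links chromatin, cuts it with micrococcal nuclease and ligates the ends that lie close together, so that the count of a pair of bins measures how often they were in contact.

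The 4 groups were WT ESCs, PATZ1 KO ESCs, WT MNs and PATZ1 KO MNs, with 1 library in each. All came from E14, a mouse ESC line. ESCs were grown with LIF and inhibitors of MEK and GSK3, and cervical MNs were obtained from the same lines through embryoid bodies patterned with retinoic acid and smoothened agonist. The KO lines were made with CRISPR/Cas9 and grown from single clones, so a clone and the loss of PATZ1, a DNA-binding zinc finger protein, cannot be told apart. The cell states were taken from the labels, since expression of their markers was not measured in these libraries. With 1 library in a group no difference had a replicate check and no test was made. Intervals in brackets are at the 95% level and cover counting error only. Directions between genotypes rest on reading the first count column as WT and the second as KO, following the order of both names in the comparison, because the columns carry no sample name.

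Zfp42 (Rex1) encodes a zinc finger protein and is a widely used marker of pluripotent cells, active in ESCs and silenced as they differentiate. Fat1 encodes an atypical cadherin with roles in cell polarity and tissue growth. Domains of contact are regions whose bins touch one another more than they touch the neighbouring region, and their borders are often bound by CTCF, which halts the extrusion of chromatin loops by cohesin. Genes that lie in one domain can be exposed to the same regulatory elements, and such a shared domain can be divided differently when one gene of it is active.

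Zfp42 (ENSMUSG00000051176.6) lies at chr8:43295063-43306980 on the minus strand and Fat1 (ENSMUSG00000070047.14) at chr8:44935447-45052257 on the plus strand. Their start sites are 1628 kb apart, and the Zfp42 promoter faces Fat1. The 250 bases upstream of each start site are shown because the lowest borders inside the window lay beside Zfp42 in ESCs and at the start of Fat1 in MNs. They were read 5′ to 3′ on the strand of the gene from GRCm38, at chr8:43306981-43307230 on the minus strand for Zfp42 and chr8:44935197-44935446 on the plus strand for Fat1. Capitals mark the letters GGGAGGG on either strand, a G-rich run searched because PATZ1 binds G-rich DNA.
Zfp42: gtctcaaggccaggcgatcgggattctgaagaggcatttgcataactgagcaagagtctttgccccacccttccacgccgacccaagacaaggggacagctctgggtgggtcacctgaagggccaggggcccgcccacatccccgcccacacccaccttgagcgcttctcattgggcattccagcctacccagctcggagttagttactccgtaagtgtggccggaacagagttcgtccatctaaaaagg
Fat1: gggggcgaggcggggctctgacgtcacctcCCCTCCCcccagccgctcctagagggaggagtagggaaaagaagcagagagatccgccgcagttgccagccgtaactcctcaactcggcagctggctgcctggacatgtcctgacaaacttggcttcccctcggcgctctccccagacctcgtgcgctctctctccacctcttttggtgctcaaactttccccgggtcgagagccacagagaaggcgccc
The Fat1 promoter held this run once, on the opposite strand, and the Zfp42 promoter did not hold it. The run was present in 19.7% of 32851 RefSeq promoters of the same length. GC content was 58.8% for Zfp42 and 64% for Fat1.

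The core letters of the CTCF motif (CC, any 3 bases, then AGGGGGC or AGGTGGC) were searched on both strands in each border bin and its neighbours. Among the borders described below, only the one beyond the Fat1 side of the window held a match. It is shown as the single match with 9 bases on either side, at chr8:45362505-45362534 on the plus strand (GRCm38), with the core in capitals.
Border at 45.352 Mb: aagaaaaatCCAATAGGTGGCgccacgtcc
Neither promoter held the core, which was present in 1.7% of the promoters. Matches were found in 6.11% of the 311 bins of the window and in 10.4% of the 15508 bins of chromosome 8 with contacts. Runs of 3 bins, the unit searched at a border, held one in 26.9% of cases along the chromosome. A match of letters is a description and not a site.

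Listed contacts summed to between 110991835 and 170946673 per library, of which chromosome 8 held 7.38% to 7.59%. Within the window they summed to 258685 in WT ESCs, 240314 in KO ESCs, 142103 in WT MNs and 162741 in KO MNs. A listed pair of the window held a median of 3 contacts in both ESC libraries and 2 in both MN libraries. Contacts per bin, relative to the chromosome mean, were 1.10 in WT ESCs, 1.09 in KO ESCs, 0.951 in WT MNs and 1.05 in KO MNs, so the window was more thinly covered in WT MNs than in the other 3 libraries. A pair is listed only when both libraries of a cell state held a contact. Where pairs are sparse, this stretches a value of observed over expected away from 1. It also draws a KO over WT ratio towards 0 on the log2 scale. Values that allow for the listing are given beside the sparsest blocks, but not for steps of 100 kb seen from a start site.

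The window was not a single domain in either cell state. Its lowest border lay beside Zfp42 in ESCs and at Fat1 in MNs, in WT MNs by a small margin. The insulation score of a bin was used, the log2 of the contact across it within 250 kb over the mean of the chromosome, and borders were bins that were lowest among the 10 bins on either side and under -0.2, after averaging the WT and KO libraries of a cell state. In ESCs the window held 3 borders, at 43.104, 43.344 and 44.032 Mb. The lowest of them, at 43.344 Mb, lay 41 kb from the start site of Zfp42 on the side of Fat1, and its score was -0.81 in WT ESCs, -0.96 in KO ESCs, -0.55 in WT MNs and -0.39 in KO MNs. Both ESC libraries were thus below both MN libraries there. The border at 43.104 Mb had -0.43 in WT ESCs, -0.47 in KO ESCs, -0.45 in WT MNs and -0.27 in KO MNs. The border at 44.032 Mb had -0.18, -0.22, -0.53 and -0.27 in the same order. On its own the WT ESC library did not pass -0.2 at 44.032 Mb, and both MN libraries were lower there. Just beyond the Fat1 end of the window, a further ESC border at 45.352 Mb had -0.44 in WT ESCs, -0.46 in KO ESCs, -0.76 in WT MNs and -0.77 in KO MNs. An MN border beside it, at 45.336 Mb, had -0.41 in WT ESCs, -0.43 in KO ESCs, -0.75 in WT MNs and -0.83 in KO MNs, about as low as the MN border at Fat1.

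In MNs the lowest score of the window was at the start of Fat1. The border bin at 44.936 Mb, just inside the start of Fat1, had a score of 0.05 in WT ESCs, 0.10 in KO ESCs, -0.74 in WT MNs and -0.81 in KO MNs. Contact across the Fat1 start site was near the chromosome mean in both ESC libraries and well under it in both MN libraries. The square behind this score held 3751 and 3611 contacts in WT and KO ESCs and 1316 and 1227 in WT and KO MNs, and the difference of MNs from ESCs was -0.79 (-0.88 to -0.70) in WT and -0.91 (-1.01 to -0.82) in KO. These borders were chosen on the scores themselves, so their levels are a description.

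The border at 43.344 Mb was also a minimum in MNs. Of the remaining MN minima of the window, those between Zfp42 and Fat1 lay at 43.544, 43.664 and 43.992 Mb, with scores of -0.69, -0.72 and -0.54 in WT MNs and -0.43, -0.39 and -0.33 in KO MNs. In WT MNs the score at 43.664 Mb was close to the -0.74 at Fat1, from 1333 and 1316 contacts in their squares. At 43.544 and 43.664 Mb the scores were 0.23 and 0.27 in WT ESCs and 0.26 and 0.28 in KO ESCs. The minimum at 43.992 Mb was 40 kb from the ESC border at 44.032 Mb and had -0.09 in WT ESCs and -0.12 in KO ESCs. The bins at 43.544, 43.664 and 43.992 Mb held 786, 464 and 954 contacts in WT MNs, and the part of coverage in their scores was not tested. The MN minima between the genes stood on a broad stretch of low scores and not in a sharp valley. A further pair lay before Zfp42, at 42.808 and 42.976 Mb.

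**Figure D1:**
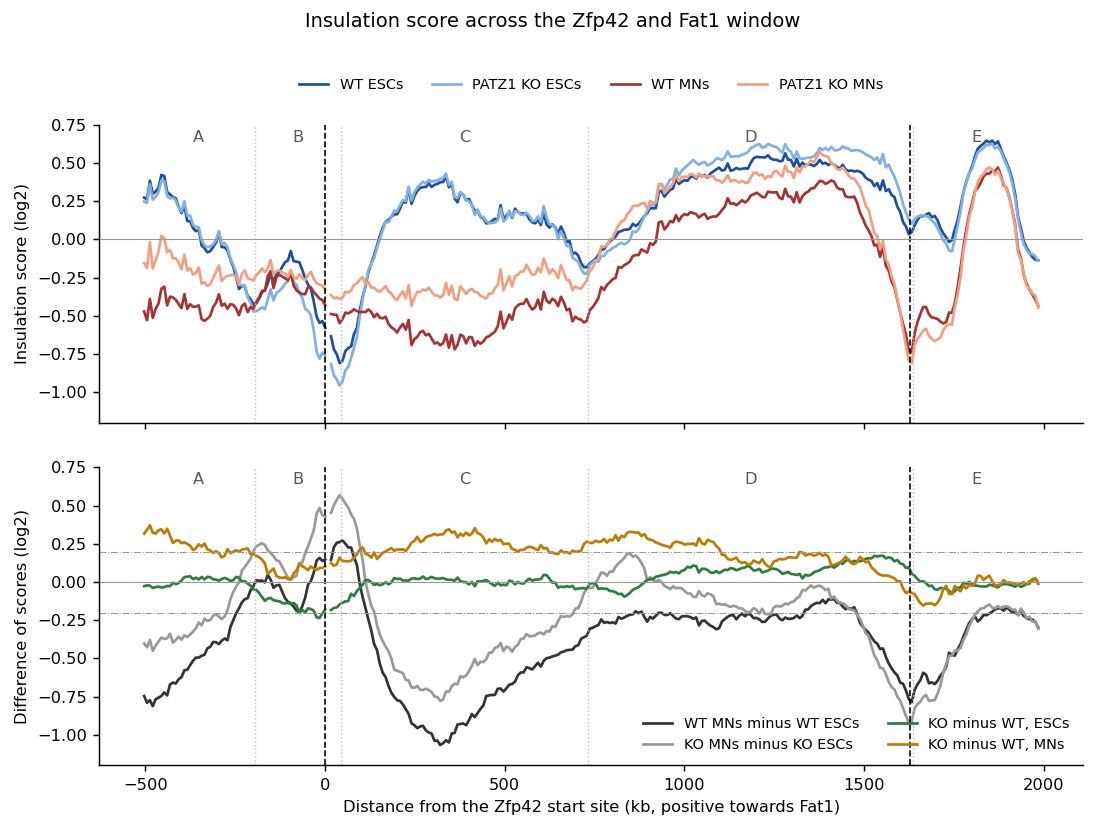
Insulation score (upper panel, log2 of contact across each bin over the chromosome mean) and differences between libraries (lower panel) along the window, in kb from the Zfp42 start site; dashed lines mark the start sites of Zfp42 and Fat1, dotted lines the subdomain limits A to E, and dash-dotted lines the 0.2 used to count bins. The ESC libraries reach their lowest scores beside Zfp42 (-0.81 and -0.96) and the MN libraries at Fat1 (-0.74 and -0.81). In WT MNs a minimum at 43.664 Mb is nearly as low (-0.72).

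Across the window most bins had a lower score in MNs than in ESCs. In WT, 237 of 311 bins were lower by 0.2 or more (76.2%, against 35.9% of 311136 bins over all chromosomes) and 7 were higher by 0.2 or more (2.25%, against 29.3%). In KO, 151 bins were lower (48.6%, against 27.9%) and 24 were higher (7.72%, against 25.5%). The median difference was -0.27 in WT and -0.19 in KO, where the medians over chromosome 8 were -0.04 and 0.01. Neighbouring bins share most of their square, so these bins are not independent of one another.

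The stretch around Zfp42 was an exception. For description the window was divided at the 3 ESC borders and the MN border at Fat1 into subdomains A (42800001 to 43104000, with no coding start site), B (43112001 to 43344000, with Triml1, Triml2 and Zfp42), C (43352001 to 44032000, with Adam26b, Adam26a, Gm5346 and Adam34), D (44040001 to 44936000, ending at the start site of Fat1) and E (44944001 to 45296000, with the body of Fat1 and with Mtnr1a, F11 and Klkb1). In B none of 28 bins was lower by 0.2 or more in MNs, 2 bins in WT and 15 in KO were higher, and the median difference was 0.0020 in WT and 0.22 in KO. Both limits of B are ESC minima, and B is 232 kb long, within the 250 kb reach of the score. Its low ESC scores, and so the lack of bins lower in MNs, follow in part from that choice. In C, 76 of 85 bins were lower in WT and 69 in KO, with a median difference of -0.67 in WT and -0.43 in KO. The limits of C are ESC borders too, so its higher ESC scores follow in part from that choice. In D, which ends at Fat1, 92 of 112 bins were lower in WT and 24 in KO, the latter a smaller share than the 27.9% of all bins. In E, 34 of 44 were lower in WT and 28 in KO.

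The start sites of the coding genes showed the same division. At Zfp42 the score was -0.58 in WT ESCs, -0.76 in KO ESCs, -0.43 in WT MNs and -0.33 in KO MNs. At Fat1 it was 0.03, 0.13, -0.73 and -0.79 in the same order. Zfp42 therefore had the lower score of the pair in ESCs and Fat1 in MNs, in both genotypes. Among 20960 coding start sites of all chromosomes, 4.63% had a difference of MNs from ESCs in WT as low as that of Fat1 (-0.77), and 1.59% one as low in KO (-0.93). The difference at Zfp42 was 0.15 in WT, close to the median of 0.17 over all start sites, and 0.43 in KO, where the median was 0.08.

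Of the other genes, Triml1 and Triml2, which encode proteins related to the tripartite motif family and lie in the subdomain of Zfp42, had scores between -0.20 and -0.46 in all 4 libraries. Adam26b, Adam26a and Adam34, members of the ADAM metalloprotease family that are best known from testis, and Gm5346 had scores between 0.24 and 0.40 in the ESC libraries. In WT MNs these 4 genes lay between -0.59 and -0.69 and in KO MNs between -0.33 and -0.39, so the ESC and MN values were far apart for each of them. Their start site bins held 404 to 871 contacts in WT MNs, against 799 at Zfp42 and 973 at Fat1. The part of coverage in these scores was not tested. Beyond Fat1, Mtnr1a, which encodes a melatonin receptor, had 0.13 and 0.09 in WT and KO ESCs and -0.31 and -0.36 in WT and KO MNs. F11 and Klkb1, which encode a coagulation factor and plasma prekallikrein, differed less, by -0.24 and -0.30 in WT. Gm45753, which runs out of the window, had -0.22 in WT ESCs and -0.57 in WT MNs.

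The coding genes outside the window whose 4 scores were nearest to those of Zfp42 (Euclidean distance over the 4 libraries) were Specc1, Agbl2 and Spast, at distances of 0.0554, 0.0688 and 0.0773. For Fat1 they were Klrb1, Pla2g4c and Gm13178, at distances of 0.055, 0.0645 and 0.085. This is a likeness of scores in 4 libraries and of nothing else.

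In ESCs the subdomain of Zfp42 was set apart from its neighbour C, while its contact with E, the subdomain with the body of Fat1, was high. Contact between B and C, adjoining subdomains, was 0.566 times the value expected at the same distances on chromosome 8 (0.546 to 0.586) in WT ESCs, 0.528 (0.508 to 0.548) in KO ESCs, 0.769 (0.739 to 0.799) in WT MNs and 0.824 (0.794 to 0.855) in KO MNs. The log2 ratio of MNs over ESCs was 0.44 (0.37 to 0.52) in WT and 0.64 (0.57 to 0.72) in KO. The limit between B and C was placed at the lowest ESC score, so the lower ESC values follow from that choice and are a description. Contact within B was 1.13 in WT ESCs, 1.04 in KO ESCs, 0.909 in WT MNs and 0.921 in KO MNs.

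Contact between B and D followed the same pattern at longer range. It was 0.736 in both ESC libraries, and 1.64 in WT MNs and 1.59 in KO MNs. Counts were 574 and 562 in WT and KO ESCs against 1499 and 1510 in WT and KO MNs. The counts expected at these distances were also higher in MNs, although the MN libraries held fewer contacts in total. The counts alone thus overstate the difference. Allowing for the listing, observed over expected contact was 0.837 in ESCs and 1.33 in MNs, on the same sides of 1. Subdomain A, before Zfp42, showed this too, with 0.736 and 0.728 against D in WT and KO ESCs and 1.48 and 1.59 in WT and KO MNs, or 0.841 in ESCs and 1.28 in MNs allowing for the listing. In ESCs the stretches on the far side of Zfp42 were thus low in contact with the domain before Fat1, and in MNs they were not.

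Contact between B and E was high in all 4 libraries, at 3.98 (3.54 to 4.46) in WT ESCs, 3.99 (3.54 to 4.47) in KO ESCs, 3.24 (2.96 to 3.54) in WT MNs and 3.35 (3.07 to 3.65) in KO MNs. Pairs this far apart are sparse: 16.5% of them were listed in ESCs and 28.2% in MNs. Allowing for the listing gave 2.14 in ESCs and 1.98 in MNs, so both values stayed above 1 and the difference between the cell states was small. Contact between A and E was 0.828 and 0.97 in WT and KO ESCs, from only 57 and 66 contacts, and 2.26 and 2.30 in WT and KO MNs. Allowing for the listing it was 0.945 in ESCs and 1.58 in MNs.

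Contact within C was lower in MNs. It was 1.14 in WT ESCs, 1.17 in KO ESCs, 0.7 in WT MNs and 0.852 in KO MNs. The log2 ratio of MNs over ESCs was -0.71 (-0.74 to -0.68) in WT and -0.45 (-0.49 to -0.42) in KO. Allowing for the listing it was -0.53 over both genotypes together. The limits of C were placed at ESC borders, and the MN minima inside it were not used as limits. The higher ESC values thus follow in part from that choice and are a description. Contacts per bin of C, relative to the chromosome mean, were 1.04 in WT ESCs, 1.01 in KO ESCs, 0.814 in WT MNs and 0.947 in KO MNs. The expected value of each pair was then scaled by the geometric mean of the coverage of its bins, not by their product. With this scaling the ratios were -0.34 in WT and -0.35 in KO. Coverage thus moved with this result and with its difference between genotypes. Because coverage was counted from the same listed contacts, the scaling cannot tell it apart from contact within C.

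Contact between D and E, the subdomains on either side of the Fat1 start site, was 1.35 (1.32 to 1.37) in WT ESCs and 1.39 (1.37 to 1.42) in KO ESCs. In MNs it was 0.773 (0.749 to 0.798) in WT and 0.764 (0.74 to 0.788) in KO. The limit between D and E was placed at the lowest MN score, so the low MN values follow from that choice and are a description. The log2 ratios of MNs over ESCs were -0.80 in WT and -0.87 in KO, and -0.72 and -0.79 when scaled by coverage. Of these pairs 70.8% were listed in ESCs and 42.6% in MNs. Allowing for the listing, contact was 1.29 in ESCs and 0.829 in MNs, a smaller log2 ratio of -0.64. Contact within D, 1.28 in WT ESCs and 1.12 in WT MNs, and within E, 1.24 and 1.16, differed less.

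**Figure D2:**
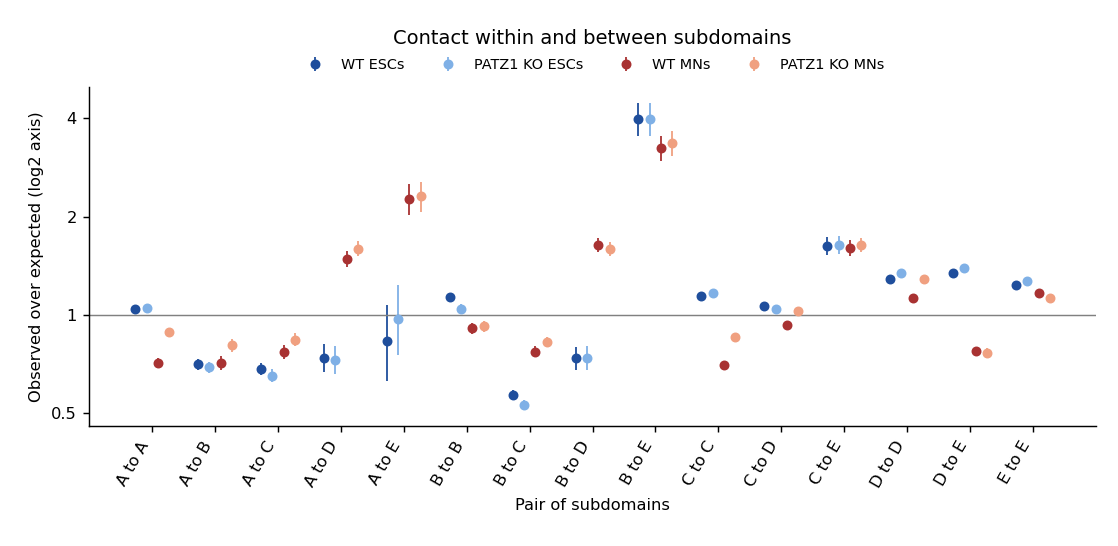
Observed over expected contact within and between subdomains A to E (vertical log2 axis), with points for the 4 libraries and bars for 95% exact Poisson intervals. B to C is lowest in the ESC libraries (0.566 and 0.528), and A to D, A to E and B to D are above 1 in the MN libraries alone. D to E, and contact within A, within B and within C, are above 1 in the ESC libraries alone.

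Of the 40 kb pairs of the window with a mean of at least 20 counts, 156 of 899 were lower by a log2 of 1 or more in WT MNs than in WT ESCs (17.4%, against 7.24% over all chromosomes) and 20 were higher (2.22%, against 5.51%). In KO, 129 of 888 were lower (14.5%, against 6.13%) and 25 were higher (2.82%, against 5.16%). Over the whole window, observed over expected contact was 1.13 in WT ESCs, 1.15 in KO ESCs, 0.946 in WT MNs and 1.05 in KO MNs, where the medians of 970 windows of the same size lay between 0.995 and 1.02. The log2 ratio of MNs over ESCs in the window was -0.26 in WT and -0.13 in KO. Of the 970 windows, 19.3% had one as low in WT and 19.1% in KO. The lower contact in MNs was found at short and middle range: from 16 to 40 kb the log2 ratio was -0.30 in WT and -0.14 in KO, from 208 to 400 kb -0.37 and -0.26, and from 808 to 1600 kb 0.07 and 0.10.

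**Figure D3:**
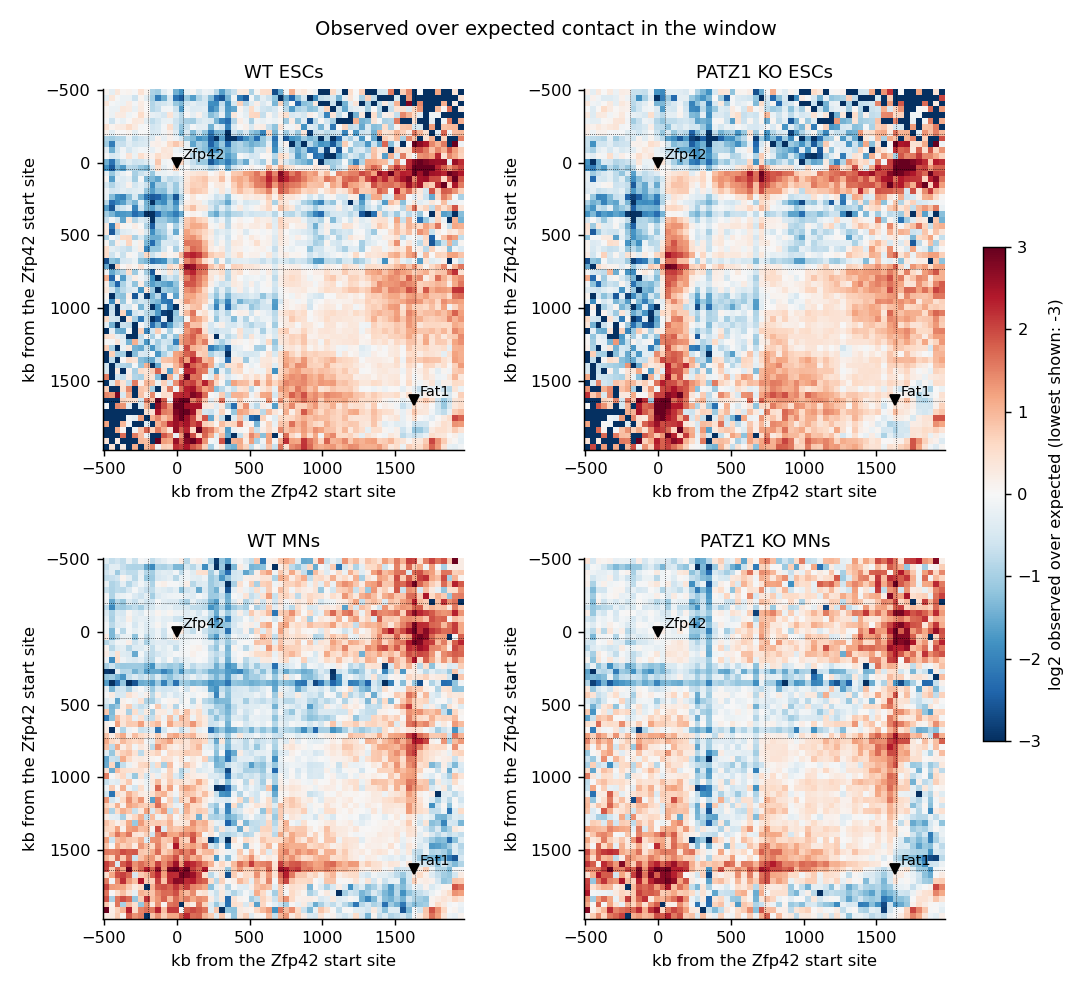
Contact maps of the window in the 4 libraries, as log2 of observed over expected contact in 40 kb steps, with both axes in kb from the Zfp42 start site and triangles at the start sites of Zfp42 and Fat1 (values under -3 are drawn at -3, steps with too few bins in grey). A band of high contact starts at the edge of C beside Zfp42, higher in the ESC maps but above 1 towards D and E in the MN maps too. Another starts at Fat1, higher towards A and B in the MN maps, and above 1 towards D in both cell states.

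Contact between the surroundings of the members themselves, all bins within 100 kb of the Zfp42 start site against all bins within 100 kb of the Fat1 start site, was above expectation in every library. There were 334 contacts in WT ESCs, 332 in KO ESCs, 485 in WT MNs and 515 in KO MNs. Over the numbers expected by distance these were 5.48 (4.91 to 6.10), 5.52 (4.94 to 6.14), 4.55 (4.16 to 4.98) and 4.61 (4.22 to 5.02). The ESC values were above the MN values in both genotypes, although Zfp42 and Fat1 were separated by a border in each cell state. The log2 ratio of MNs over ESCs was -0.27 (-0.47 to -0.06) in WT and -0.26 (-0.46 to -0.06) in KO. Of the 650 pairs, 31.4% were listed in ESCs and 43.4% in MNs, and allowing for the listing gave 2.66 in ESCs and 2.48 in MNs, a log2 ratio of -0.10. With all libraries thinned to the shallowest the ratio was -0.50 in WT and -0.47 in KO, and with 50 kb on either side -0.62 and -0.46. Over pairs listed in both cell states it was -0.10 (-0.42 to 0.22) in WT and -0.15 (-0.46 to 0.16) in KO, where both intervals held 0. The excess was thus present in both cell states, and whether it differed between them depended on the processing.

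Seen from the start site of Zfp42 (its bin and the bin on either side, of which 1 held no contacts), the contact with E stood out. It was 8.82 in WT ESCs, 9.27 in KO ESCs, 4.33 in WT MNs and 3.77 in KO MNs, from 46 to 55 contacts in each. Allowing for the listing it was 3.53 in ESCs and 2.25 in MNs. The 100 kb step from 1600 to 1700 kb, which holds the Fat1 start site, had 29 contacts in WT ESCs, 29 in KO ESCs, 30 in WT MNs and 29 in KO MNs. The step just before it, from 1500 to 1600 kb, had 2 contacts in WT ESCs, 5 in KO ESCs, 10 in WT MNs and 11 in KO MNs. Over expectation that step was 0.771 (0.09 to 2.78), 1.94 (0.63 to 4.54), 2.28 (1.09 to 4.18) and 2.39 (1.19 to 4.27) in the same order, so the 4 intervals overlapped. With D as a whole it was 0.825 and 0.722 in WT and KO ESCs and 1.35 and 1.36 in WT and KO MNs, or 0.860 in ESCs and 1.20 in MNs allowing for the listing.

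Seen from the start site of Fat1, contact with the stretches beyond Zfp42 was higher in MNs. With A it was 4.13 (3.07 to 5.43) in WT MNs and 4.78 (3.66 to 6.12) in KO MNs, from 51 and 62 contacts, where WT and KO ESCs held 6 and 7. Allowing for the listing it was 1.05 in ESCs and 2.36 in MNs. With B it was 3.98 and 2.99 in WT and KO ESCs and 6.28 and 6.34 in WT and KO MNs, and allowing for the listing it was 2.01 in ESCs and 3.03 in MNs. In both MN libraries the contact of Fat1 with A and with B was therefore above expectation. In the 100 kb before the Zfp42 start site, on the side of Fat1, the values were 10.2 and 9.72 in WT and KO ESCs and 7.94 and 10.3 in WT and KO MNs, so the ESC and MN libraries overlapped. In the 100 kb beyond it they were 1.97 and 1.67 in WT and KO ESCs, from 6 and 5 contacts, and 6.18 and 4.82 in WT and KO MNs. The values of these steps do not allow for the listing. With E, its own gene body and beyond, contact of the Fat1 start site was 1.22 in WT ESCs, 1.17 in KO ESCs, 0.857 in WT MNs and 0.896 in KO MNs.

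**Figure D4:**
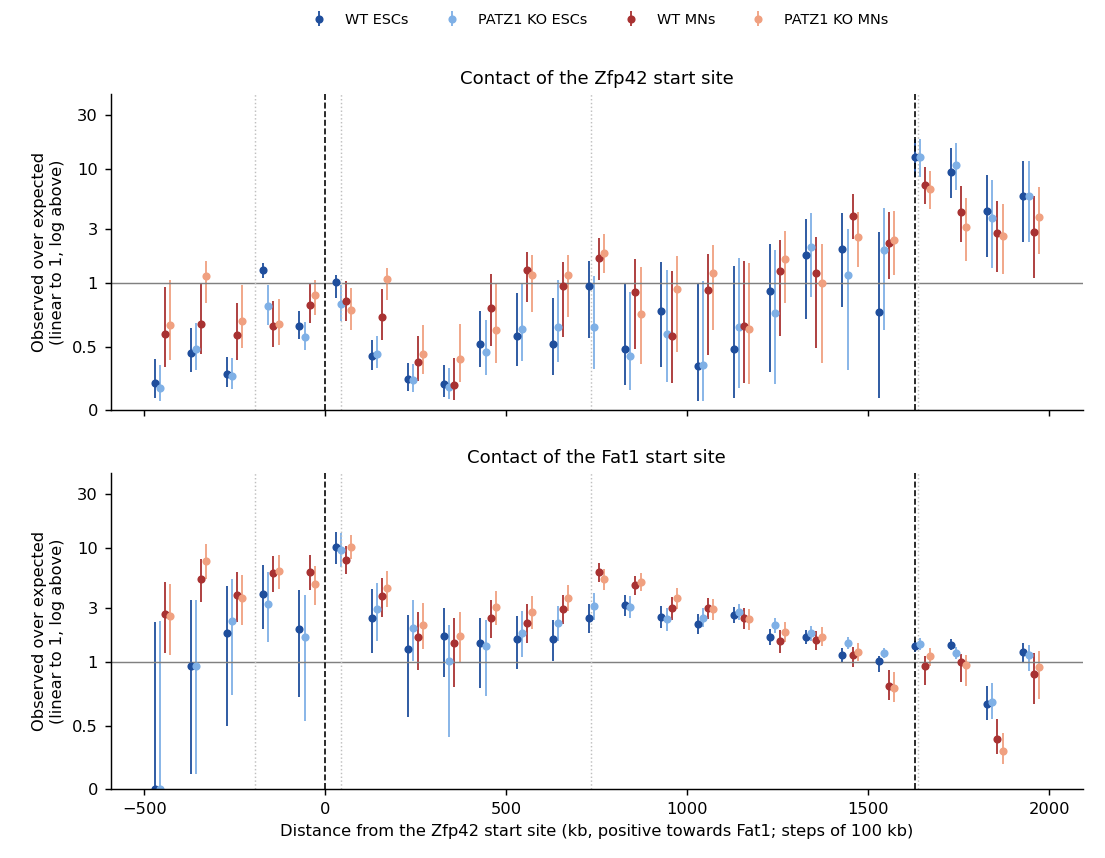
Contact of the Zfp42 start site (upper panel) and of the Fat1 start site (lower panel) with 100 kb steps along the window, as observed over expected (vertical axis linear up to 1 and logarithmic above), with 95% exact Poisson bars, dashed lines at both start sites and dotted lines at the subdomain limits. From Zfp42, the step that holds the Fat1 start site is the highest in every library (12.6 in WT ESCs and 7.31 in WT MNs from 1600 to 1700 kb). From Fat1, the steps on the far side of Zfp42 (negative kb) are high in the MN libraries (5.36 in WT MNs from -400 to -300 kb) and sparse in the ESC libraries. The values do not allow for the listing, which stretches sparse steps away from 1.

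A band of contact started at the edge of C beside Zfp42. The 160 kb next to the ESC border (43352001 to 43512000, chosen after the maps were seen) contacted the rest of C at 1.70 and 1.79 in WT and KO ESCs and 0.827 and 0.96 in WT and KO MNs. With D it was at 2.76 and 2.70 in WT and KO ESCs and 1.73 and 1.84 in WT and KO MNs, and with E at 4.51 and 4.37 in WT and KO ESCs and 3.35 and 3.41 in WT and KO MNs. Allowing for the listing, the values in ESCs and MNs were 1.67 and 0.912 with the rest of C, 1.95 and 1.44 with D, and 2.32 and 2.04 with E. The stretch was chosen for its band in the ESC maps, so the higher ESC values follow from that choice and are a description. Contact with B, across the border, was 0.658 and 0.585 in WT and KO ESCs and 0.782 and 0.876 in WT and KO MNs.

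Pairs of single bins at least 100 kb apart, with a mean of at least 10 contacts and at least 2 times the expected value, were ranked by observed over expected in each cell state. The minimum of contacts was reached by 328 pairs in ESCs, of which 196 were enriched, and by 39 in MNs, all of them enriched. In MNs a mean of 10 contacts at these distances was itself more than 2 times the expected value, so the minimum fixed that outcome. The shares of the cell states are therefore not comparable, and no share over all chromosomes was counted. Each list was chosen on the contact of its own cell state, so its levels are a description and no comparison between the cell states. All of the top 5 in ESCs joined bins from 43.376 to 43.408 Mb with bins at 44.016 and 44.024 Mb, the opposite ends of C, over 608 to 648 kb. The highest, 43.392 to 44.024 Mb, had 16 contacts in WT ESCs and 15 in KO ESCs. None of these bins overlapped a coding gene. In MNs all of the top 5 joined one bin at 45.232 Mb with bins from 45.04 to 45.072 Mb, which run from the end of Fat1 over AY512931 to Mtnr1a. The highest, 45.064 to 45.232 Mb, had 47 contacts in WT ESCs, 38 in KO ESCs, 28 in WT MNs and 37 in KO MNs, at 9.78, 8.65, 9.92 and 13.3 times the expected value.

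The rule for 1 internal border between the genes, the bin of lowest ESC score more than 100 kb inside both start sites, gave the bin at 43.408 Mb. This bin was at the limit of that range, on the slope of the border at 43.344 Mb. Separation, the log2 of observed over expected contact across a bin over that within 500 kb on either side, was -0.45 in WT ESCs, -0.39 in KO ESCs, -0.06 in WT MNs and -0.10 in KO MNs. The difference of MNs from ESCs was 0.39 (0.33 to 0.46) in WT and 0.29 (0.23 to 0.36) in KO. It was 0.19 and 0.11 over pairs listed in both cell states, and -0.25 and -0.40 with the border at the MN minimum of 43.544 Mb, so which cell state was the more separated depended on the bin. At the local minimum of 43.344 Mb, added after the data were seen, separation was -0.87 in WT ESCs, -0.93 in KO ESCs, -0.17 in WT MNs and -0.25 in KO MNs. At the Fat1 minimum it was 0.11, 0.13, -0.74 and -0.79 in the same order. The insulation score at 43.408 Mb differed between MNs and ESCs by -0.10 (-0.19 to -0.01) in WT and 0.15 (0.06 to 0.23) in KO.

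In PATZ1 KO ESCs the window was divided much as in WT ESCs. Of 311 bins, none had a score higher by 0.2 or more in KO (against 3.59% over all chromosomes) and 4 were lower (1.29%, against 5.9%), so both shares were under those of all chromosomes. These 4 bins lay within 71 kb of the Zfp42 start site, at 43232001 to 43240000 and 43280001 to 43304000, and the last 2 of them overlap Zfp42. The difference at the border of 43.344 Mb was -0.15 (-0.24 to -0.05), and at the Zfp42 start site -0.18, where the median over all start sites was -0.05 and 11.2% were as low. Fat1 had 0.10, with 92.2% as low.

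Contact within B was 1.13 (1.10 to 1.16) in WT ESCs and 1.04 (1.01 to 1.08) in KO ESCs, a log2 ratio of -0.12 (-0.18 to -0.05), and between B and C the ratio was -0.10 (-0.17 to -0.02). With the same scaling by coverage these were -0.08 and -0.06. The start site of Zfp42 had fewer contacts with its own subdomain in KO ESCs, 241 against 362 in WT, a log2 ratio of -0.46 (-0.70 to -0.22). With 6 bins at Triml2 (43160001 to 43208000, chosen because the WT ESC library was high there) the start site of Zfp42 had 137 contacts in WT ESCs, 66 in KO ESCs, 33 in WT MNs and 33 in KO MNs. The choice of these bins favoured the WT ESC count, so its excess over the others is a description. These bins lie in B, so their contacts are part of the 362 and 241 above. The ratio with B was not computed without them. All contacts of the 3 bins at the Zfp42 start site were also lower in KO ESCs, 1956 against 2367, a log2 ratio of -0.19 relative to chromosome 8, and its part in the result was not tested.

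Contact between the sides of Zfp42 and of Fat1 did not differ detectably between the ESC genotypes at this depth. The log2 ratio of KO over WT was 0.01 (-0.21 to 0.23) for the surroundings of Zfp42 and Fat1 and 0.00 (-0.23 to 0.24) between B and E. Between D and E it was 0.05 (0.01 to 0.09), or 0.01 when scaled by coverage. From the Fat1 start site it was 0.21 (0.10 to 0.32) with D, from 1362 contacts in WT ESCs and 1463 in KO ESCs. With E, on the side of the gene body, it was -0.07 (-0.21 to 0.07), from 847 contacts in WT ESCs and 742 in KO ESCs. Listing draws ratios of sparse pairs towards 0: in the Zfp42 to Fat1 block 55.9% of the listed pairs held a single contact in WT ESCs, and a true doubling would have appeared there as a log2 ratio of 0.49 if all pairs at a distance shared 1 mean. Separation at 43.408 Mb differed by 0.06 (0.01 to 0.12) and the insulation score by -0.02 (-0.09 to 0.06). Of 934 pairs of 40 kb, 1 was higher by a log2 of 1 or more (0.107%, against 0.0328%) and none was lower (against 0.0919%).

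In MNs the KO library had higher scores than WT over the part of the window before Fat1. In all, 141 of 311 bins were higher by 0.2 or more (45.3%, against 23.6% over all chromosomes) and none was lower (against 20.4%). They were 30 of 38 bins in A, 64 of 85 in C and 46 of 112 in D, together with 1 border bin, and none lay in B or E. The median difference in the window was 0.19, where the median over chromosome 8 was -0.02. At the Zfp42 start site it was 0.10 and at the Fat1 start site -0.06, where the median over all start sites was -0.14. Over the whole window the log2 ratio of KO over WT contact was 0.15 in MNs. Of 970 windows of the same size, 73.4% had one as low.

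Contact within subdomains showed where this lay. The log2 ratio of KO over WT in MNs was 0.31 (0.25 to 0.38) within A, 0.28 (0.25 to 0.32) within C and 0.20 (0.17 to 0.22) within D, and 0.02 (-0.06 to 0.10) within B and -0.05 (-0.10 to 0.00) within E. Contacts per bin moved with it: relative to the chromosome mean they were 0.788 in WT and 0.932 in KO MNs for A, 0.814 and 0.947 for C and 1.05 and 1.17 for D, but 0.964 and 0.996 for B and 1.08 and 1.07 for E. Scaled by the geometric mean of bin coverage, the ratios were 0.07 within A, 0.06 within C and 0.04 within D. The higher contact in KO MNs was therefore found in the 3 subdomains whose coverage differed most between KO and WT MNs. It was much smaller with this scaling, and its size depends on the form of scaling chosen. Coverage was counted from the same listed contacts, so a gain of contact within a subdomain would also raise its coverage. The scaling would remove such a gain too, so it cannot tell contact and coverage apart.

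The contacts of the members with each other showed no detectable difference between the MN genotypes. The log2 ratio of KO over WT was 0.02 (-0.16 to 0.20) for the surroundings of Zfp42 and Fat1, a block in which a true doubling would have appeared as 0.61. It was -0.02 (-0.08 to 0.05) between D and E, and the insulation score at the Fat1 border differed by -0.07 (-0.18 to 0.04). Separation at 43.408 Mb differed by -0.04 (-0.11 to 0.03), while the insulation score there differed by 0.23 (0.13 to 0.32). Of 796 pairs of 40 kb, 2 were higher by a log2 of 1 or more (0.251%, against 0.188%) and 1 was lower (0.126%, against 0.146%).

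**Figure D5:**
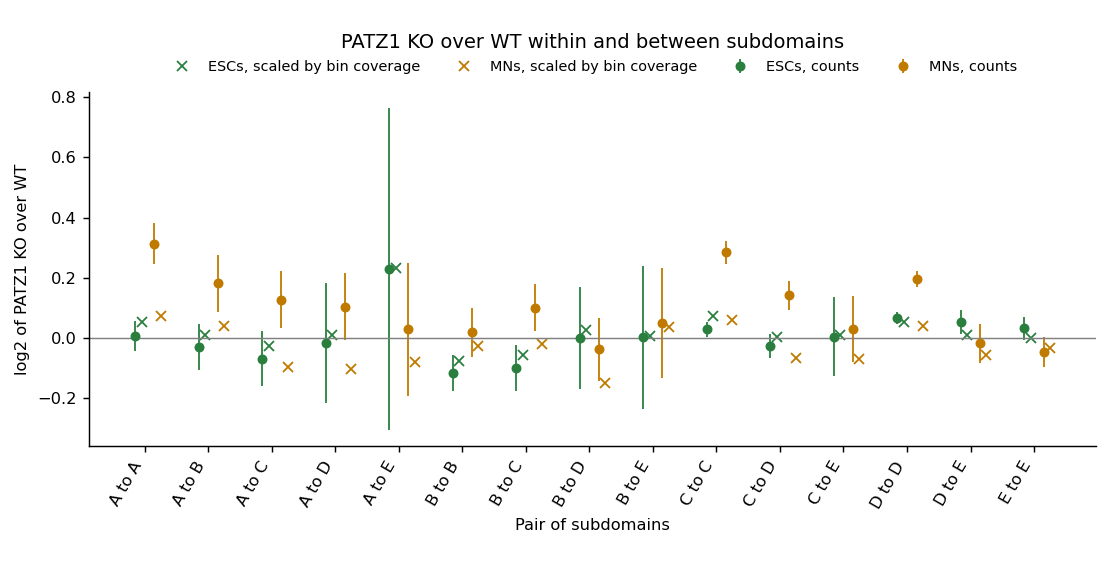
Log2 ratio of PATZ1 KO over WT contact within and between subdomains A to E, in ESCs and in MNs; circles with bars give the ratio of observed over expected counts with 95% conditional binomial intervals, and crosses the ratio with expected values scaled by bin coverage. Within A, C and D the MN ratios of 0.20 to 0.31 drop to 0.04 to 0.07 when scaled by coverage, and within B the ESC ratio is -0.12.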

How the data were processed

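Contacts of 4 Micro-C libraries were analysed, 1 in each group, with groups taken from the sample labels. Micro-C libraries were made with the Dovetail kit from an independent pool of cells each. The deposited tables are HiCcompare lists of pairs of 8 kb bins, one for each cell state. Each pair has a raw count of contacts in each library, deposited without scaling. Each also has an adjusted signal, for which the authors normalized both libraries of a cell state together against distance. The authors' own comparison columns (log2 ratios, scores and p-values of KO against WT) were not used. Per the study's methods, Dovetail aligned the reads, kept valid pairs and built a contact matrix for each sample with its Micro-C tools. The build was mm10, per the labels, and the aligner and its version were not given in the sources used here. Coordinates are 1-based, with genes from GENCODE M21 and sequence from GRCm38.

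From the counts, expected contact was the mean at each distance over bins of chromosome 8 with contacts in every library, and pairs not listed counted as 0. When scaled by coverage, it was multiplied by the geometric mean of the coverage of the bins of a pair, each relative to the chromosome mean. Ratios carry exact conditional binomial intervals and levels exact Poisson intervals at the 95% level, and separation a Poisson delta-method interval. The insulation score used the adjusted signal and a 250 kb square. Bins were called past a difference of 0.2, and 40 kb pairs up to 2 Mb apart past a log2 ratio of 1. Allowance for the listing fitted 1 Poisson mean per distance and 1 factor per block to the contacts of both libraries, given that a pair is listed only with a contact in each. The steps were tested on simulated data. Genes were named by position in the window, by likeness of scores, or as overlapping the 5 highest enriched pairs of each cell state.

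The window, the members and the lists were chosen with earlier results of these data known. Alternatives changed the counts used, the depth, the distances, the block and square sizes and the place of the internal border. Python 3.11.15, numpy 2.4.6 and scipy 1.17.1 were used.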

Additional observations from a re-analysis of the deposited data

Results flagged for a closer look

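The insulation score at the bin of 43.408 Mb was lower in MNs than in ESCs in WT (-0.10) and higher in KO (0.15), a difference between the genotypes of 0.24. Each interval left out 0, the effects went opposite ways, and the difference between them was not tested, since each group had 1 library. This held with the 250 kb square alone: with a square of 100 kb the values were -0.34 in WT and -0.078 (-0.21 to 0.05) in KO, and with one of 500 kb -0.015 (-0.08 to 0.05) in WT and 0.14 in KO. At the ESC border of 43.344 Mb beside Zfp42, the KO library had a lower score than WT in ESCs (-0.15) and a higher one in MNs (0.16), a difference between the cell states of 0.31 that was not tested either. Contacts per bin of subdomain C, which holds the first bin and adjoins the second, were 1.04 and 1.01 times the chromosome mean in WT and KO ESCs and 0.814 and 0.947 in WT and KO MNs, and the part of coverage in these differences was not tested.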

How the results depend on the processing

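Of 82 alternatives over 12 results, 57 stayed within the counting interval of the reported value, 15 moved outside it and 10 reversed the direction of a value whose interval left out 0. Of those that stayed within it, 9 had the other sign from a reported value whose interval held 0, all of them for KO against WT. The place of the internal border decided most of these. With the border at the MN minimum of 43.544 Mb, the difference of MNs from ESCs in separation was -0.25 in WT and -0.40 in KO, the KO difference in ESCs was 0.13, and the difference of MNs from ESCs in insulation was -0.92 in WT and -0.69 in KO. At the lowest ESC local minimum of 43.344 Mb, chosen after seeing the data, the separation differences were 0.70 in WT and 0.67 in KO, and -0.058 for KO in ESCs, and the insulation differences were 0.26 in WT, 0.57 in KO and -0.15 for KO in ESCs. At the Fat1 minimum, also chosen after seeing the data, separation differed by -0.86 in WT and -0.92 in KO, and insulation by -0.79 in WT, -0.91 in KO and -0.072 for KO in MNs. These are different borders, so their values need not be alike. With a square of 100 kb, insulation at 43.408 Mb differed by -0.34 in WT and -0.078 in KO. With pairs listed in both cell states, separation differed by 0.19 in WT and 0.11 in KO, and without pairs under 40 kb by 0.50 and 0.40. For Zfp42 and Fat1, thinning all libraries to the shallowest gave log2 ratios of MNs over ESCs of -0.50 in WT and -0.47 in KO, blocks of 50 kb either side gave -0.62 in WT, and pairs listed in both cell states gave -0.10 (-0.42 to 0.22) in WT and -0.15 (-0.46 to 0.16) in KO. The cause was not tested. All 12 alternatives for KO over WT contact between Zfp42 and Fat1 stayed within the counting interval, from -0.10 to 0.06, in blocks whose sparse pairs draw the ratio towards 0. Scaling by bin coverage and the allowance for the listing were chosen after seeing the data.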
